A study of Mus musculus with 15 samples.

Results

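The genes described here are 10 markers of macrophages and other leukocytes measured in mouse kidney: Cd74, C1qa, C1qb, C1qc, Csf1r, Lyz2, Cd68, Tyrobp, Fcer1g and Ptprc. They were taken by name, and each was represented by the probe set whose only platform gene symbol is that gene. All 10 were found, each with 1 such probe set, among 19938 genes that have a probe set of their own. Expression was measured on 15 Affymetrix mouse gene arrays in 4 groups.

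The first group holds 4 single cells (numbered 14, 15, 16 and 19) of metanephric mesenchyme (MM), from which the nephrons of the embryo form. They were picked at embryonic day 11.5, by needle under a fluorescence microscope, from mice with the transgene Tg(Crym-EGFP)GF82Gsat, in which green fluorescent protein follows the regulatory sequence of Crym, and their sex is unknown. The second holds 5 single cells (4 to 8) of the juxtaglomerular (JG) complex, the renin cell region beside the glomerulus, from adult male Ren1c-YFP mice. They were picked for yellow fluorescence after collagenase A and trypsin digestion, although 1 label field names a Ren1d GFP line in its place. The other groups are cortex of adult male Ren1c-YFP mice, lysed as a mixture of cell types from a limited area, with 3 libraries (A, B and C) each. Diluted cortex went through the single cell amplification, like the cells, with 32 rounds recorded. Standard-labelled cortex was amplified with a NuGEN kit, with 1 round recorded. The strain is given as unspecified, no sample was pooled, and no label names an animal or says what the library letters mark. Each group of cells therefore counts as 1 sample and was not tested, and p-values between the cortex groups measure only the spread between these libraries, which may be technical.

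Macrophages live in the kidney interstitium among the tubules and vessels, where they take up debris, present antigen and produce complement. Their survival depends on the receptor encoded by Csf1r, and many of their genes are switched on by the transcription factor PU.1 (Spi1). Ptprc encodes CD45, a phosphatase on the surface of nearly all nucleated blood cells. Most of the other 9 genes are known mainly from macrophages and related myeloid cells, and Cd74 goes with MHC class II.

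Values are log2 signals as deposited. An array has no count depth, and the number of arrays limits the precision. The background of each array was the 99th percentile of its 1210 probe sets for odorant and pheromone receptors, a family of the nose. Over the 4 MM arrays it spanned 7.13 to 7.56, and over the 5 JG arrays 7.55 to 7.92. Over the cortex arrays it spanned 6.18 to 6.30 (diluted) and 6.30 to 6.51 (standard-labelled). A macrophage gene therefore has to be brighter to stand out in a cell than in cortex. The order of raw values between cells and cortex, here and below, carries this difference in background. All 10 proximal tubule genes examined stood above background on each of the 6 cortex arrays. In JG cells 18 of 35 values of renin and mural cell genes did, with Ren1 and Akr1b7 not among the genes with a probe set of their own. Of the values of 8 nephron progenitor genes, 9 of 32 in MM cells and 8 of 40 in JG cells stood above background. Their median difference, MM minus JG cells, was -0.13, so the list did not set the MM cells apart. Its member Six2 reached 10.13 in MM cell 16, against a median of 7.18 over the other MM cells.

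None of the 10 genes was above background in any single cell. The count was 0 of 40 values in MM cells and 0 of 50 in JG cells, where 17.1% and 10.2% of the values of all 19938 genes were above it. All 10 genes were thus below background on every MM array and every JG array, as were 69.3% of all genes in MM cells and 78.6% in JG cells. Diluted cortex had 27 of 30 values above background (49.1% of the values of all genes), and 9 of the 10 genes on all 3 arrays (45.9% of all genes), each gene except Ptprc. Standard-labelled cortex had 10 of 30 values above background (46.6% of the values of all genes), and 2 of the 10 genes, Csf1r and Tyrobp, on all 3 arrays (42.7% of all genes). The cortex groups thus gave different pictures, and labelling and library cannot be told apart as their source. In a lysate of many cell types, fewer macrophages and less RNA per macrophage cannot be told apart.

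**Figure D1:**
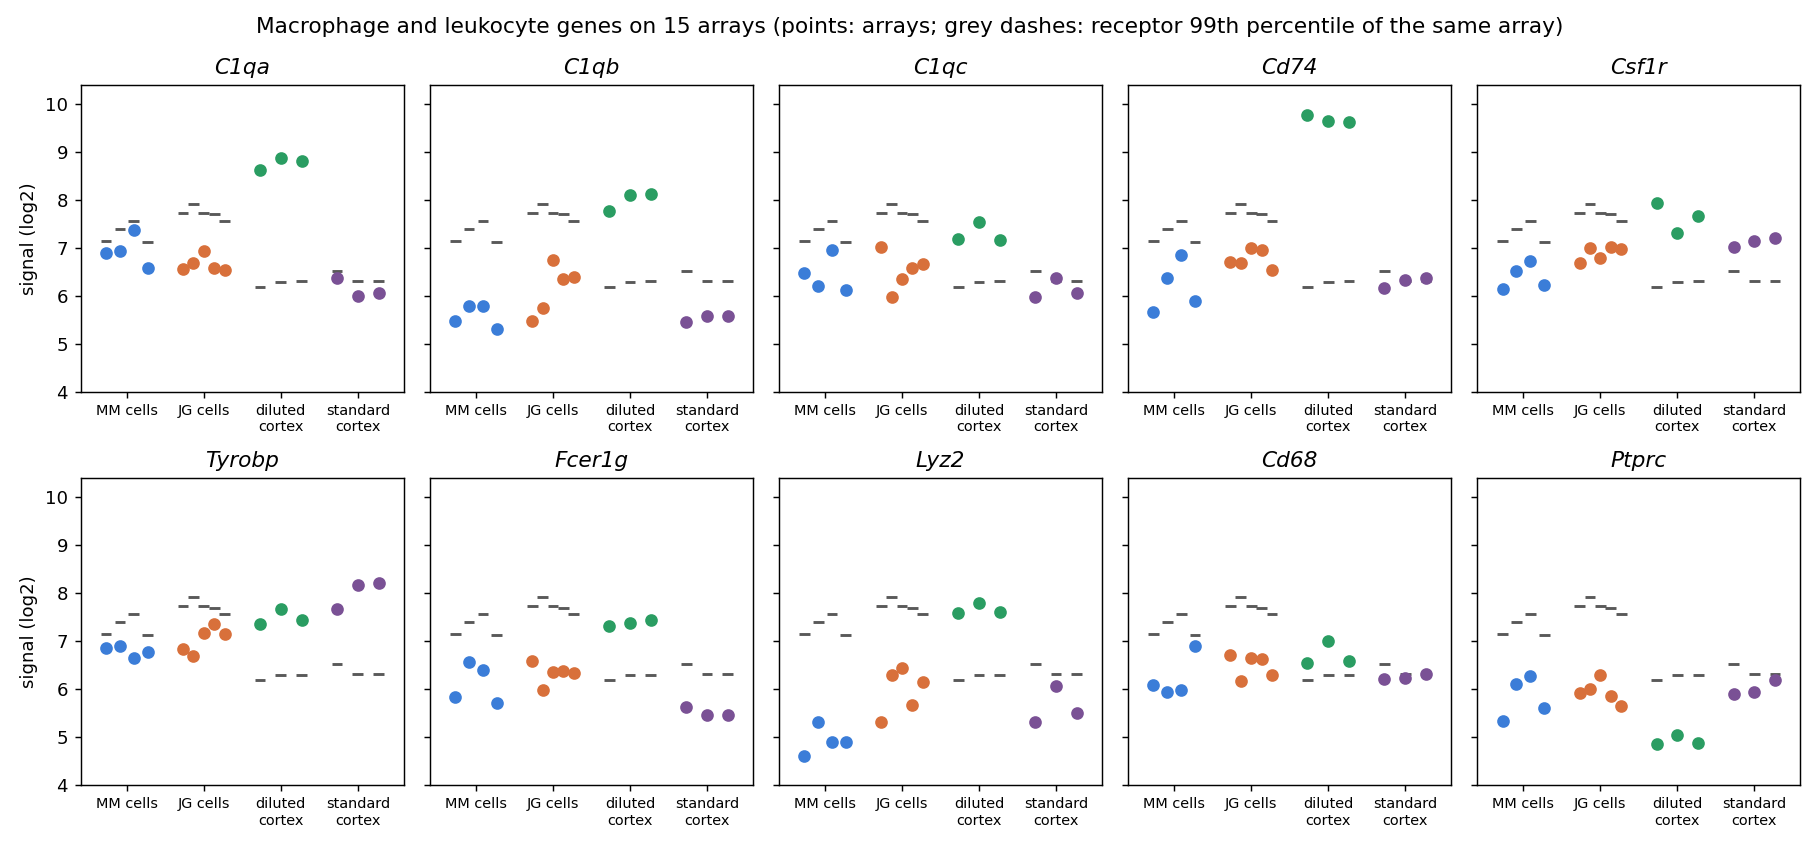
Signal (log2) of the 10 genes on each array, in MM cells, JG cells, diluted cortex and standard-labelled cortex, 1 point an array, with a grey dash at the receptor 99th percentile of the same array. Every point of the 9 cells lies under its dash, 9 genes lie above their dashes in diluted cortex, and only Csf1r and Tyrobp do so in all 3 standard-labelled libraries.

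The 3 chains of C1q, the complement component with which macrophages recognise immune complexes and dying cells, were each higher in diluted than in standard-labelled cortex. C1qa, C1qc and C1qb are consecutive protein-coding genes in RefSeq's table for GRCm38.p6, and their products assemble into 1 complex. C1qa measured 6.89, 6.94, 7.37 and 6.58 in MM cells 14, 15, 16 and 19, and 6.56, 6.69, 6.94, 6.58 and 6.53 in JG cells 4 to 8. It measured 8.63, 8.88 and 8.81 in diluted cortex A, B and C, against 6.36, 6.003 and 6.07 in standard-labelled cortex A, B and C. The diluted libraries were the highest of all arrays, the ranges of MM and JG cells overlapped, and standard-labelled cortex lay below every cell.

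C1qb measured 5.48, 5.79, 5.80 and 5.32 in the MM cells and 5.48, 5.75, 6.75, 6.35 and 6.39 in the JG cells. It measured 7.78, 8.11 and 8.12 in diluted cortex, against 5.45, 5.58 and 5.58 in standard-labelled cortex. Diluted cortex again stood apart, and the ranges of MM cells, JG cells and standard-labelled cortex overlapped. C1qc measured 6.47, 6.20, 6.96 and 6.12 in the MM cells and 7.02, 5.98, 6.34, 6.57 and 6.66 in the JG cells. It measured 7.19, 7.54 and 7.17 in diluted cortex, against 5.98, 6.36 and 6.06 in standard-labelled cortex. The gap between the cortex groups was smaller for C1qc than for C1qa or C1qb, and JG cell 4 came close to the lowest diluted library.

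By limma, a linear model with a moderated spread fitted over 19531 probe sets with Benjamini-Hochberg adjustment, the 3 chains rose in diluted relative to standard-labelled cortex. The log2 differences were 2.63 ± 0.12 (SE, 3 libraries each) for C1qa (adjusted p = 4.93e-07), 2.47 ± 0.12 for C1qb (adjusted p = 5.03e-07) and 1.17 ± 0.14 for C1qc (adjusted p = 1.31e-04). C1qa and C1qb were below background in all 3 standard-labelled libraries. There, and wherever a bound is given, the dim group enters with the higher of its value and the background on each array, and the difference is stated as at least so many fold. C1qa was at least 5.28-fold and C1qb at least 3.09-fold higher in diluted cortex. C1qc was above background in 1 standard-labelled library, B, and with the same floor it was at least 1.87-fold higher in diluted cortex, a log2 difference of 0.91.

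RefSeq's promoter table (GRCm38.p6) holds 6 of the 10 genes: C1qb, C1qc, Lyz2, Cd68, Fcer1g and Ptprc. C1qa, Cd74, Csf1r and Tyrobp were not matched. The 250 bases before the start site are shown 5′ to 3′ for the 4 of them with a limma estimate of at least 1 log2 unit in diluted cortex. That estimate alone set which windows are printed, and shared control of these genes was not tested. Capitals mark GAGGAA, the core that PU.1 binds, on either strand.
C1qb (chr4:136886201-136886450, minus strand): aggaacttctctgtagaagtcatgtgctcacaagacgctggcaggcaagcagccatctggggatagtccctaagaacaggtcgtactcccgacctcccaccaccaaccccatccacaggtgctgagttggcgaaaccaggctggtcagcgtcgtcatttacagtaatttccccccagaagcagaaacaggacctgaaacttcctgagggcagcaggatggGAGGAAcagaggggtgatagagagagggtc
C1qc (chr4:136892915-136893164, minus strand): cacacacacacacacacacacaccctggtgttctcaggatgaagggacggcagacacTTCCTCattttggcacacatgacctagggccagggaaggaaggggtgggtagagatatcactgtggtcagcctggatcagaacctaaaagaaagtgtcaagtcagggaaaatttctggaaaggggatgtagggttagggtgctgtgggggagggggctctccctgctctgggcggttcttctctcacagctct
Lyz2 (chr10:117282273-117282522, minus strand): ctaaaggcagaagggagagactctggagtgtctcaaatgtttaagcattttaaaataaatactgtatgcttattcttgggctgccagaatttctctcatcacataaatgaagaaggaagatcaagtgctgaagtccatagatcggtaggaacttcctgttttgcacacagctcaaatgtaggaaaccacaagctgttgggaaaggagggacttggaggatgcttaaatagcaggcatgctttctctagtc
Fcer1g (chr1:171234350-171234599, minus strand): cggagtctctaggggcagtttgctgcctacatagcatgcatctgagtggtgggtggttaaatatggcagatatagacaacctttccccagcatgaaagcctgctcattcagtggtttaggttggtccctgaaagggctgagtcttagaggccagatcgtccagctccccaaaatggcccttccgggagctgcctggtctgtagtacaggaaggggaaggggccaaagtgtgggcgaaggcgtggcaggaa
The C1qb window holds GAGGAA once, from position -30 relative to the start site, and the C1qc window once on the other strand, from position -193. The windows of Lyz2 and Fcer1g hold none. Cd68 has it from position -225, and 1 of the 2 Ptprc windows has it from position -158. In all, 4 of the 7 windows of these 6 genes hold GAGGAA, while 23.3% of all 32817 promoter windows of this length hold it. The longer GAGGAAGT, which contains the core, was found in 1 of the 7 windows, that of C1qc, and in 2.44% of all windows. A match of letters is a description and not a binding site.

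Cd74 encodes the invariant chain, which escorts MHC class II molecules on their way to be loaded with antigen. It measured 5.65, 6.38, 6.84 and 5.89 in the MM cells and 6.70, 6.68, 6.99, 6.96 and 6.53 in the JG cells. It measured 9.76, 9.64 and 9.63 in diluted cortex, against 6.16, 6.33 and 6.37 in standard-labelled cortex. In raw signal the JG cells lay above all standard-labelled libraries, and the diluted libraries lay far above every other array. Among the receptors of the same array the order of the first 2 was the other way. Cd74 lay above 90.5% to 96.7% of them in JG cells and above 97.8% to 99.4% in standard-labelled cortex. Cd74 had the largest rise of the 10 genes, by 3.40 ± 0.09 on the log2 scale (limma, SE, adjusted p = 6.93e-08). In standard-labelled cortex it was just above background in libraries B and C and below it in A, and with A at its background the rise was at least 9.70-fold.

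Most MHC class II genes moved the same way. Of 7 measured class II genes, 5 rose in diluted cortex (limma, adjusted p under 0.05), where 38.0% of all probe sets tested rose and 36.7% fell. H2-Ab1, which encodes the beta chain of I-A, averaged 10.59 ± 0.02 in diluted and 8.25 ± 0.01 in standard-labelled cortex (SD, n = 3 each). H2-DMa, a chain of the peptide editor, averaged 7.91 ± 0.23 in diluted and 5.55 ± 0.28 in standard-labelled cortex. H2-Eb1 averaged 8.92 ± 0.14 in diluted and 7.09 ± 0.10 in standard-labelled cortex. H2-Oa rose by 0.85, and H2-Aa, named after its value was seen, by 0.73. H2-DMa and H2-Oa passed the filter only through diluted cortex and were below background in all 3 standard-labelled libraries. H2-DMa was at least 2.89-fold higher in diluted cortex. H2-Oa averaged 6.22 in diluted cortex, below the mean background of 6.375 on the standard-labelled arrays, so no bound can be given for it. The remaining 2, H2-Ob (-0.21) and Ciita (-0.0002), did not pass the filter on dim probe sets and were below background in all 6 libraries. H2-Ab1 was above background in both kinds of cortex library. In JG cells H2-Ab1 averaged 6.82, and no class II gene was above background in a JG cell. In MM cells 2 of 28 class II values were, both of H2-Eb1, at 7.63 in cell 15 and 7.59 in cell 16.

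Among MHC class I genes, which most cells express, 5 of 7 rose and 2 fell, beside 38.0% and 36.7% of all probe sets tested. Tapbp, the tapasin of the peptide loading complex, rose by 2.40, and the immunoproteasome genes Psmb10 and Psmb8 rose by 1.52 and 1.17. The light chain B2m fell by 0.87, with 10.92 ± 0.09 in diluted and 11.79 ± 0.04 in standard-labelled cortex (SD, n = 3 each).

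Csf1r, the receptor for the growth factors CSF1 and IL-34, was above background in both kinds of cortex. It measured 6.14, 6.52, 6.73 and 6.23 in the MM cells and 6.68, 7.0004, 6.79, 7.02 and 6.97 in the JG cells. It measured 7.93, 7.31 and 7.66 in diluted cortex, against 7.01, 7.14 and 7.21 in standard-labelled cortex. All diluted libraries lay above all standard-labelled ones, library B narrowly, and the JG cells reached into the standard-labelled range. The rise in diluted cortex was 0.51 ± 0.16 (limma, SE, adjusted p = 0.0178), or 1.43-fold. It did not pass without diluted library C (0.50, adjusted p = 0.0519) or without standard-labelled library A (0.46, adjusted p = 0.0581).

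Of 9 measured genes in a list of CSF1 receptor ligands, other colony-stimulating factors and myeloid transcription factors, 8 were tested, 5 rose and 0 fell in diluted cortex. Over all probe sets tested, 38.0% rose and 36.7% fell. The ligand Il34 rose by 1.56. Csf1 differed by 1.03 from levels below background in all 3 standard-labelled libraries, and Csf3, a granulocyte factor named after its value was seen, by 0.75 between levels below background in all 6 libraries. The factor Spi1, which encodes PU.1, averaged 7.64 ± 0.13 in diluted and 5.44 ± 0.09 in standard-labelled cortex (SD, n = 3 each). It was below background in all 3 standard-labelled libraries, and at least 2.40-fold higher in diluted cortex. Irf8, a factor of the monocyte lineage, rose by 1.90 and was above background in 1 standard-labelled library.

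Tyrobp and Fcer1g encode short membrane adaptors whose cytoplasmic tyrosine motifs carry the signals of Fc and TREM receptors. The pair differed in direction between the cortex groups. Tyrobp measured 6.85, 6.90, 6.64 and 6.77 in the MM cells and 6.84, 6.69, 7.16, 7.35 and 7.15 in the JG cells. It measured 7.36, 7.66 and 7.44 in diluted cortex, against 7.67, 8.17 and 8.21 in standard-labelled cortex. The cortex ranges nearly touched, and JG cell 7 reached nearly to the lowest diluted library. The difference was -0.53 ± 0.16 (limma, SE, adjusted p = 0.0179). It did not pass with arrays centred on their medians, which adds 0.18 to each difference between the cortex groups (-0.35, adjusted p = 0.0948). It also failed without diluted library A or C (adjusted p = 0.0526 and 0.0549) and without standard-labelled library B or C (adjusted p = 0.0625 and 0.0659).

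Fcer1g measured 5.82, 6.57, 6.40 and 5.71 in the MM cells and 6.59, 5.98, 6.35, 6.38 and 6.33 in the JG cells. It measured 7.32, 7.38 and 7.44 in diluted cortex, against 5.62, 5.47 and 5.45 in standard-labelled cortex. Here standard-labelled cortex was the lowest group, below every cell, and diluted cortex the highest. Fcer1g rose by 1.87 ± 0.09 (limma, SE, adjusted p = 5.47e-07) and was at least 2.01-fold higher in diluted cortex.

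Few genes of a list drawn up around these adaptors were measurable in cortex. Of its 13 measured genes, 7 were tested, 3 rose and 0 fell, beside 38.0% and 36.7% of all probe sets tested. The rises were 0.58 for Sh2b3, 0.35 for Hcst and 0.24 for the kinase Fgr. Whether each listed gene, Sh2b3 among them, acts with these adaptors was not tested. Hcst, the neighbour of Tyrobp in the gene table, encodes another such adaptor, and it averaged 5.88 ± 0.08 in diluted and 5.54 ± 0.10 in standard-labelled cortex (SD, n = 3 each), below background in all 6 libraries, as was Fgr. Plcg2, a lipase activated by these adaptors, differed by 0.25 without passing the test.

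**Figure D2:**
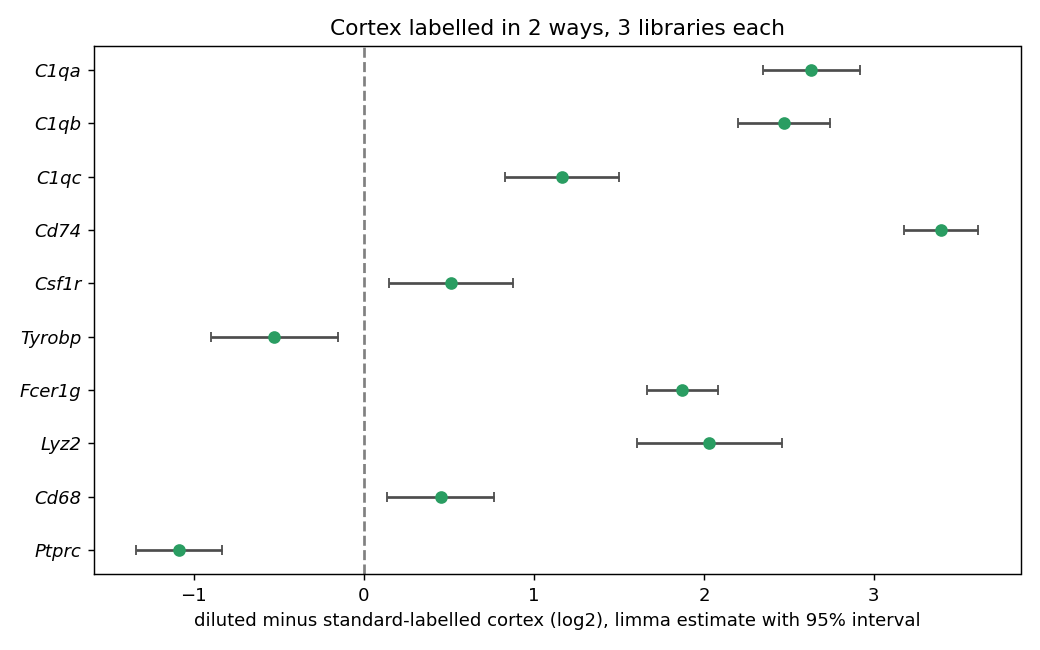
Difference between diluted and standard-labelled cortex (log2) for each of the 10 genes, as the limma estimate with its 95% interval over 3 libraries each. The points run from -1.09 for Ptprc to 3.40 for Cd74, with Tyrobp and Ptprc below 0.

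Lyz2 and Cd68 belong to the lysosome and to secretion, Lyz2 as the lysozyme of macrophages and Cd68 as a heavily glycosylated lysosomal membrane protein. Lyz2 measured 4.59, 5.32, 4.90 and 4.89 in the MM cells and 5.31, 6.30, 6.44, 5.67 and 6.14 in the JG cells. It measured 7.58, 7.79 and 7.60 in diluted cortex, against 5.32, 6.05 and 5.50 in standard-labelled cortex. Diluted cortex stood apart, and the JG cells overlapped with both the MM cells and standard-labelled cortex. Lyz2 rose by 2.03 ± 0.18 (limma, SE, adjusted p = 1.97e-05) and was at least 2.43-fold higher in diluted cortex. Its neighbour and close copy Lyz1 can share signal with it, and measured 5.88, 6.01 and 6.06 in diluted cortex, against 5.82, 5.95 and 6.12 in standard-labelled cortex.

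Cd68 measured 6.08, 5.94, 5.97 and 6.90 in the MM cells and 6.72, 6.18, 6.64, 6.63 and 6.30 in the JG cells. It measured 6.53, 7.004 and 6.58 in diluted cortex, against 6.21, 6.23 and 6.32 in standard-labelled cortex. All 4 groups lay close together, and the cells overlapped with diluted cortex. The rise in diluted cortex was 0.45 ± 0.13 (limma, SE, adjusted p = 0.0157). Cd68 was above background in 1 standard-labelled library, C, and with the others at their background it was at least 1.26-fold higher in diluted cortex.

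Ptprc was below background on all 15 arrays. It measured 5.33, 6.11, 6.28 and 5.60 in the MM cells and 5.91, 5.99, 6.29, 5.84 and 5.65 in the JG cells. It measured 4.85, 5.03 and 4.88 in diluted cortex, against 5.89, 5.93 and 6.18 in standard-labelled cortex. In raw signal diluted cortex was the lowest group, and the other 3 groups overlapped. Ptprc lay above 79.3% to 84.2% of the receptors of the same array in diluted cortex. This was within the 70.2% to 86.4% of MM cells and the 72.1% to 85.0% of JG cells. Standard-labelled cortex stood apart by this measure, with Ptprc above 96.4% to 98.4% of the receptors, higher than on any other array but still below background. The limma difference of -1.09 ± 0.11 (SE, adjusted p = 3.74e-05) thus lies between levels that are both below background, and no fold is given.

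Counted together, 10 of 10 genes passed the filter and 10 passed the test between the cortex groups, 8 higher and 2 lower in diluted cortex. C1qb, Lyz2 and Fcer1g passed the filter only through diluted cortex, and Ptprc only through standard-labelled cortex. A gene that dim in 1 cortex group could be tested only if it was brighter in the other. Without the filter on dim probe sets, 10 of 10 genes also passed the test. Of all 19531 probe sets tested, 74.7% passed, so most genes changed and a count of changed genes says little. Of all probe sets tested 38.0% rose and 36.7% fell, with a median difference near 0, where the median of the 10 genes was 1.52. A rise of 1 log2 unit or more was seen in 6 of the 10 genes against 20.6% of all probe sets tested, and a fall of that size in 1, Ptprc, against 18.9%. A rise of 2 log2 units or more was seen in 4 of the 10 genes, Cd74, C1qa, C1qb and Lyz2, against 7.37% of all probe sets tested. Several of these differences start from levels below background. With every value set no lower than the background of its array, a choice made after the values were seen, 5 of the 10 genes were higher by 1 log2 unit or more (13.7% of all genes) and 2, Cd74 and C1qa, by 2 or more (4.80% of all genes), and the median of the 10 genes was 0.96. No library of 1 cortex group overlapped with the other for any of the 10 genes, while 30.6% of all genes lay apart in the higher and 30.5% in the lower direction.

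JG cells and diluted cortex went through the same amplification, and their comparison is a description with no test. Of the 10 genes, 9 were lower in JG cells by 1 log2 unit or more beyond the receptor shift, as were 40.8% of all genes. The receptor shift, the median difference of the receptors, was 1.02, so 0 on the difference scale is not the level of equal background. The median difference was -0.92 for the 10 genes and 0.56 for all genes. For the 21 further tissue macrophage genes it was 0.52 and for the 14 pan-leukocyte genes 0.34. All these medians lay below the receptor shift, that of the 10 genes farthest. The ranges lay apart, with JG cells lower, for 8 of the 10 genes (29.3% of all genes), and with JG cells higher for 1, Ptprc (49.8% of all genes). Cd74 averaged 6.77 ± 0.20 over the 5 JG cells and 9.68 ± 0.07 in diluted cortex (SD, n = 3), and was at least 3.87-fold lower in JG cells. C1qa was at least 2.07-fold and C1qb at least 1.21-fold lower. For Lyz2, C1qc, Csf1r, Fcer1g, Tyrobp and Cd68 the mean in diluted cortex was not above the mean background of the JG arrays, so no bound can be given. Ptprc differed by 1.02, close to the receptor shift.

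Against standard-labelled cortex the picture was another. The median difference of JG cells was 0.36, of opposite sign, but -0.62 relative to the receptor shift of 0.99. Of the 10 genes, 3 were lower by 1 log2 unit or more beyond that shift, where 36.6% of all genes were. The ranges lay apart for 1 gene with JG cells lower (26.9% of all genes) and for 3 with JG cells higher (52.0% of all genes). The 3 lower genes were Tyrobp (-0.98), Csf1r (-0.23) and Ptprc (-0.067). Tyrobp alone had a bound, at least 1.22-fold lower in JG cells. MM cells had a median of -0.062 there, and -0.85 relative to their receptor shift of 0.79. By that rule 3 of the 10 genes were lower in MM cells, Csf1r, Lyz2 and Tyrobp (32.5% of all genes). Their ranges lay apart for 3 genes with MM cells lower (23.5% of all genes) and for 2 with MM cells higher (47.8% of all genes), and Tyrobp was at least 1.63-fold lower in MM cells.

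MM cells differed from diluted cortex much as JG cells did, with which they share those control libraries. The median was -1.24 in MM cells, with 9 of the 10 genes lower by 1 log2 unit or more beyond the receptor shift of 0.81, against 36.9% of all genes. The 21 further macrophage genes had a median of 0.21 and the 14 pan-leukocyte genes one of 0.12 in this comparison, also below that shift. The ranges lay apart for 8 genes with MM cells lower (24.0% of all genes) and for Ptprc with MM cells higher (47.0% of all genes). Cd74 was at least 5.17-fold, C1qa at least 2.77-fold and C1qb at least 1.62-fold lower in MM cells than in diluted cortex. Bounds for Lyz2, Csf1r, Tyrobp and Fcer1g were at least 1.27-fold, 1.25-fold, 1.13-fold and 1.05-fold.

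**Figure D3:**
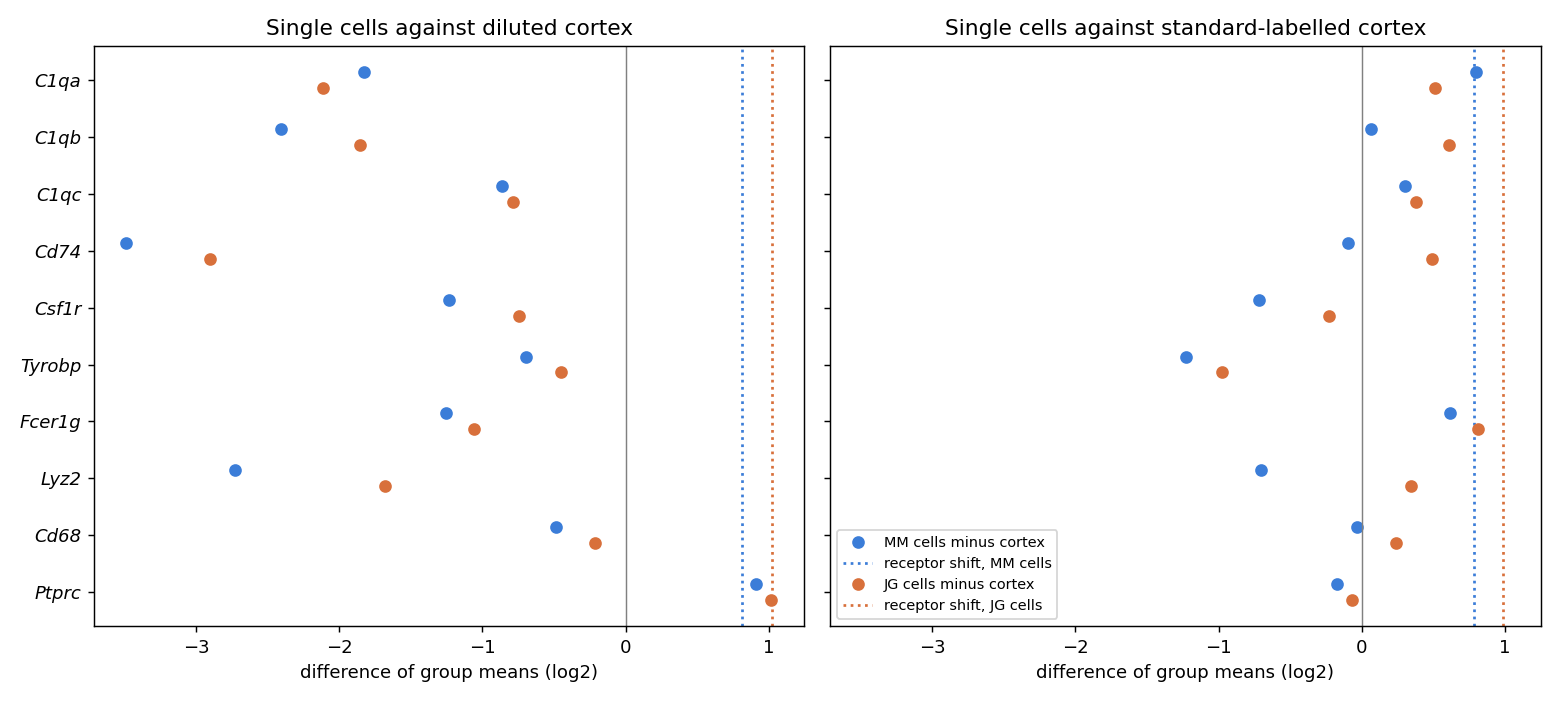
Difference of group means (log2) of MM cells and JG cells from diluted cortex (left) and from standard-labelled cortex (right) for the 10 genes, with dotted lines at the receptor shift. Against diluted cortex Cd74 lies farthest left in both kinds of cell (-3.49 in MM and -2.91 in JG cells), and against standard-labelled cortex Tyrobp does (-1.22 and -0.98).

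Set against each other in raw signal, MM and JG cells did not stand apart in any of the 10 genes. Placed among the receptors of the same array, C1qa alone did, higher in every MM cell than in any JG cell though still below background. The raw ranges overlapped for all 10, where 6.86% of all genes lay wholly lower and 1.13% wholly higher in MM cells. The median difference was -0.26, close to the receptor shift of -0.21 and to the -0.19 of all genes. Lyz2 differed most, averaging 4.92 ± 0.30 in MM cells (SD, 4 cells) and 5.97 ± 0.47 in JG cells (SD, 5 cells), a difference of -1.05 between levels below background. None of the 10 genes differed by 1 log2 unit or more beyond the shift, where 0.732% of all genes were lower and 10.8% higher in MM cells by that rule.

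Within the cells, the place of a gene among the receptors of the same array shows how near it came to background. C1qa lay above 96.0% to 98.3% of the receptors in the 4 MM cells, and above 88.3% to 94.6% in the JG cells. Tyrobp lay above 92.2% to 98.0% in MM cells and above 91.7% to 98.3% in JG cells, the highest in JG cell 7. Csf1r lay above 90.6% to 93.9% in MM cells and above 90.2% to 96.8% in JG cells. Lyz2 lay above 33.8% to 64.1% in MM cells and above 47.8% to 88.2% in JG cells. With the 95th percentile as the threshold, 10 of 40 MM values and 8 of 50 JG values passed, where 36.5% and 31.2% of the values of all genes did. C1qa did so in all 4 MM cells and in no JG cell, Tyrobp in 3 cells of each kind, Csf1r in JG cells 5, 7 and 8 and Cd74 in JG cells 6 and 7. C1qc passed it in MM cells 14 and 16, and Cd68 in MM cell 19.

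Further leukocyte genes moved both ways between the cortex groups. Of 21 further tissue macrophage genes, 6 were above background in all diluted and 4 in all standard-labelled libraries, against 45.9% and 42.7% of all genes. Of these 21 genes, 12 were tested, and 4 rose and 4 fell in diluted cortex. The shares of all probe sets tested were 38.0% and 36.7%. The inhibitory Fc receptor Fcgr2b averaged 8.99 ± 0.14 in diluted and 7.77 ± 0.21 in standard-labelled cortex (SD, n = 3 each). Cd14, a receptor for bacterial lipopolysaccharide, rose by 1.02 and was at least 1.48-fold higher, being below background in all 3 standard-labelled libraries. The activation marker Cd83 differed by 1.01 with 1 diluted library and no standard-labelled one above background. Mertk, a receptor for dying cells, fell by 1.17, at 7.21 ± 0.17 and 8.38 ± 0.02. Of 14 pan-leukocyte genes 11 were tested, 5 rose and 3 fell. Besides Spi1, the actin regulator Coro1a rose by 1.56 from levels below background in all 3 standard-labelled libraries. The actin bundler Lcp1 fell by 1.46, and the tetraspanin Cd53 differed by -0.92 between levels below background in all 6 libraries. The median differences of the tested genes were 0.22 for macrophages and 0.19 for the pan-leukocyte list. Over all measured genes, tested or not, they were -0.12 and 0.18, of either sign. They stand beside the 1.52 of the 10 genes, which were chosen with such results known.

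Of 11 complement genes beyond C1q, 6 were above background in all diluted and 5 in all standard-labelled libraries. These counts are near the shares of all genes, 45.9% and 42.7%. Of these 11, 8 were tested, 6 rose and 1 fell, beside 38.0% and 36.7% of all probe sets tested. The alternative pathway protease Cfb averaged 11.35 ± 0.05 in diluted and 10.38 ± 0.08 in standard-labelled cortex (SD, n = 3 each). The classical pathway protease C2 rose by 1.95, the C1 inhibitor Serping1 by 1.26 and the membrane regulator Cd59a by 0.85. The gene that fell was C1s1 (-0.49), and C3ar1 (-1.23) did not pass the filter. Both were below background in all 6 libraries.

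Markers of other leukocytes were almost all below background. They comprised 44 genes for T cells, B cells, NK cells, neutrophils, mast cells and dendritic cells. Of these, 3 were above background in all diluted and 1 in all standard-labelled libraries, against 45.9% and 42.7% of all genes. Only 7 were tested. The B cell receptor chain Cd79b and the dendritic cell factor Batf3 rose, by 0.88 and 1.07 from levels below background in all 3 standard-labelled libraries, and Cd4 fell by 0.37 between levels that lay below background. The neutrophil genes S100a8 and S100a9 averaged 5.22 ± 0.28 and 6.60 ± 0.48 in diluted cortex, against 5.28 ± 0.57 and 6.71 ± 0.68 in standard-labelled cortex (SD, n = 3 each).

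**Figure D4:**
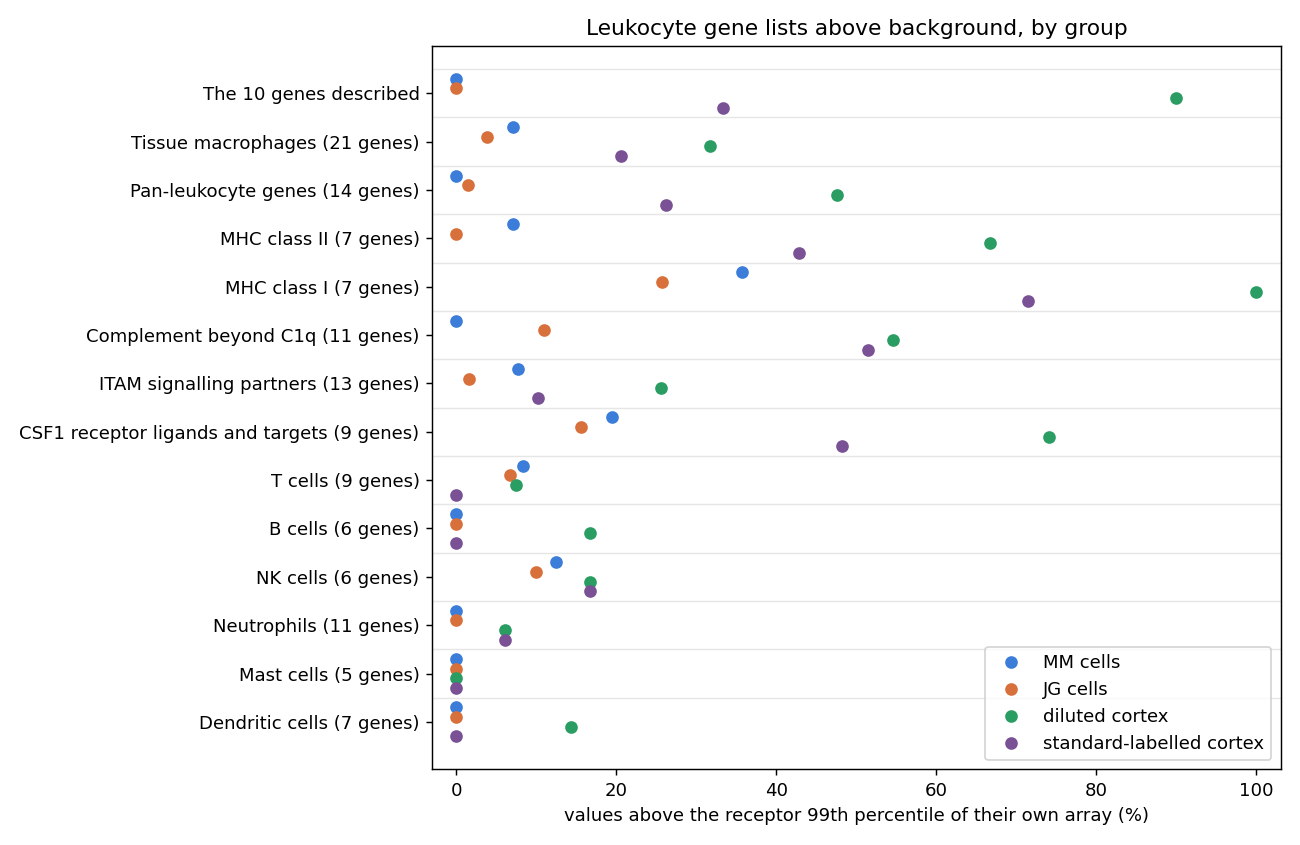
Share of values above the receptor 99th percentile of their own array (%) for each list of leukocyte genes, by group, with the number of measured genes in brackets. The 10 genes reach 90.0% in diluted and 33.3% in standard-labelled cortex and 0% in both kinds of cell, and lists for lymphocytes and granulocytes stay at or below 16.7% in every group.

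Likeness to other genes was measured as the root mean square difference of log2 profiles over the 15 arrays, each centred on its own mean. Arrays of 1 group share their amplification method, tissue and stage. The 5 genes closest to the mean of the 10 were Rffl (0.12), Slc20a2 (0.14), Asb11 (0.15), Zbtb24 (0.16) and Ngef (0.16). Taken 1 by 1, the closest gene was Rnpepl1 for Cd74 (0.25), Tlcd2 for C1qa (0.22), Coq8b for C1qb (0.24) and Neurl2 for Fcer1g (0.16). Reep6 was closest to Csf1r (0.17), Apbb2 to Tyrobp (0.19) and Otud7b to Ptprc (0.18). No gene had another of the 10 as its closest. The closest pair among the 10 was C1qc with Fcer1g, at 0.35.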

How the data were processed

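Log2 probe set signals of 15 arrays were used as the authors deposited them, 35557 probe sets with values of 2.22 to 13.98. Affymetrix Expression Console is the tool named, per the submitters' processing notes. Which version was run, how probes were summarised and whether arrays were normalized is not given in the sources used here. The platform annotation gives 1 gene symbol to 21789 probe sets and several to 1621, while 12147 are unlisted and stayed unnamed. It names no build, so its genes have no coordinates here. Where a gene had more than 1 probe set, the brightest over the arrays stood for it. The 10 genes, the lists and the rules were chosen with earlier results of these data known.

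Cortex groups were compared with limma 3.58.1 (R 4.3.3) over probe sets with a mean, in the brighter group, of at least the median of all values of the 6 arrays, at a Benjamini-Hochberg adjusted p under 0.05. The script was tested on simulated data. Cells were described by means, SDs and differences beside the receptor shift, with Python 3.11.15. All 10 genes are named, and up to 4 genes per list with the largest difference.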

Additional observations from a re-analysis of the deposited data

Results flagged for a closer look

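Cd68 in MM cell 19 measured 6.90, far from the 5.94 to 6.08 of the other MM cells, and below the background of 7.13 on that array. It was the 1 value set apart among 20 gene and cell group combinations, about the number that chance gives.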

How the results depend on the processing

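The count of 10 genes called between the cortex groups was 8 to 10 when each library was left out in turn, 9 with median centring, and 6 with a filter at the 75th percentile, which left C1qc, Cd68, Fcer1g and Ptprc untested. All probe sets called numbered 14599, and 13431 to 14342 with a library left out. With the mean of all probe sets of a gene, which tests fewer features, 9139 were called. Of 135 alternative values for single genes, 7 lost the call, for Csf1r and Tyrobp, and 0 changed sign. With the letter as a replicate block, 10 genes and 14631 probe sets were called, and no call among the 10 genes changed. Same-lettered libraries deviated together with correlations of 0.16 (A), 0.15 (B) and 0.035 (C), and not every library correlated best with its own letter. The median difference between JG cells and diluted cortex was -1.43 with median centring and -1.98 relative to the receptors. Against standard-labelled cortex the raw median was 0.36, of opposite sign, but -0.62 relative to the receptor shift. For MM cells the median difference from diluted cortex was -0.81 with quantile normalization, -1.62 with median centring and -2.09 relative to the receptors. Against standard-labelled cortex it was -0.062 raw and -0.85 relative to the receptor shift. Leaving out each array gave -1.02 to -0.87 for JG and -1.35 to -1.15 for MM cells against diluted cortex, and -0.34 to -0.21 between MM and JG cells. Values above background in JG and MM cells numbered 0 and 0, also against the highest receptor, 8 and 10 against the 95th percentile of the receptors, and 38 and 23 against the median of all probe sets of the array.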

Other observations

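B2m, the light chain of MHC class I, varied widely among JG cells. It measured 12.57 and 11.86 in JG cells 6 and 7, against 4.90, 6.29 and 5.57 in JG cells 4, 5 and 8, and 7.42, 5.43, 5.96 and 4.15 in MM cells 14, 15, 16 and 19. The same JG cells 6 and 7 held Serping1, the C1 inhibitor, at 8.62 and 8.29, above background, and JG cell 8 held it at 7.88, against 6.41 and 7.54 in JG cells 4 and 5. Neither gene is restricted to leukocytes.

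Of the values of 79 other macrophage and leukocyte genes, 3.80% in MM cells and 2.78% in JG cells were above background. Of the values of all genes, 17.1% and 10.2% were. Of the 79 genes, 5 were above background in at least 1 single cell. They are named because their values were seen. The chemokine receptor Cx3cr1 spanned 7.27 to 7.68 (MM), 7.73 to 8.29 (JG), 6.38 to 6.40 (diluted cortex) and 6.70 to 7.43 (standard-labelled cortex), and was above background in 3 of 4 MM and 4 of 5 JG cells. The T cell receptor chain Cd3e spanned 7.01 to 7.99 (MM), 7.53 to 8.12 (JG), 6.16 to 6.30 (diluted cortex) and 6.15 to 6.43 (standard-labelled cortex). The perforin gene Prf1 spanned 7.20 to 7.78 (MM), 7.56 to 8.46 (JG), 6.63 to 6.68 (diluted cortex) and 6.53 to 6.84 (standard-labelled cortex). Trem2 passed in 3 MM cells and Ptpn6 in 1 JG cell. Ptprc was below background in every one of these cells, but it was so on all 15 arrays, cortex included, and so does not mark these cells.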
